A study of Mus musculus with 2 samples.

Results

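The 84 genes described here encode the proteins of the cytosolic ribosome: 52 of the large subunit and 32 of the small one. They were taken by symbol from the 31053 genes of the matrix (Rpl or Rps with a number and an optional letter or l, with Rplp0, Rplp1, Rplp2 and Rpsa), leaving out pseudogene symbols and the Rps6k kinases. Their values were read in the 4775 barcodes that held at least 500 genes and at most 20% mitochondrial transcripts. The tissue was the lower incisor of untreated C57BL/6 mice, 4 weeks old, taken from dissected mandibles after removal of bone. The proximal region was cut off and digested with type I collagenase, and the dental epithelium stayed with the pulp although the samples are labelled as dental mesenchyme. The 2 deposited samples are lanes of 1 droplet library, given as 1 matrix of unique molecular identifiers (UMIs) without a list that ties barcodes to lanes, so all values come from 1 sample. No genotype, treatment or time was compared. Every interval below is a 95% interval that covers counting error only, and no spread over animals can be given.

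Each ribosome holds 1 copy of most of these proteins, and cells that grow or divide spend much of their transcription and translation on making ribosomes. The genes are therefore expressed in every cell type and are usually read as a measure of the capacity for protein synthesis. Their mRNAs begin with a C followed by a run of pyrimidines, the 5′ terminal oligopyrimidine tract, through which the kinase mTOR and the protein LARP1 set their translation and storage together. Some subunits have a second gene, a paralog, with a more restricted pattern in other mouse tissues: Rpl39l and Rpl10l are known from the testis, and Rpl3l from heart and skeletal muscle. The mouse incisor grows throughout life from a proximal pool of dividing epithelial and mesenchymal cells, whose descendants become enamel-forming ameloblasts and dentin-forming odontoblasts.

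The DNA around the annotated start sites was searched for such runs. RefSeq promoters of build GRCm38.p6 were available for 64 of the 84 members, and a run of at least 8 C or T beginning with C was sought on the gene's strand from 30 bases before to 50 bases after the start. Such a run was found in 48 of 64 members (75%), against 23.0% of all 27025 promoters. On the other strand of the same windows it was found in 14.1% of the members and 25.7% of all promoters. In the narrower window of 10 bases to each side, 26.6% of the members and 5.6% of all promoters held one. The 78 mitochondrial ribosomal protein genes, encoded in the nucleus but serving the separate ribosome of mitochondria, had a run in 26.1% of the 69 that matched. A list of 19 elongation factors and other mRNAs known to bear the tract had 15 that matched. Of these 15, 4 (26.7%) had a run, and 6.67% had one in the narrower window, close to the shares of all promoters. Windows of 30 bases follow for the most abundant member, for other abundant or variable members, and for 4 of the 5 pairs of paralogs compared below. They read 5′ to 3′ on the gene's strand, and capitals mark the longest run of C and T that begins with C. Where runs are equally long, as in Rps27l and Rpl22, only the first is marked.
Rpl41, the most abundant member, minus strand at chr10:128549119-128549148: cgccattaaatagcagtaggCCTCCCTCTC
Rplp0, abundant, plus strand at chr5:115559468-115559497: gaccgcctggttCTCCTataaaaggcacac
Rps24, abundant, plus strand at chr14:24490698-24490727: ttggtcggcagtgagcggtCCTCTTTTCCT
Rps9, the most variable member, plus strand at chr7:3704025-3704054: aaccgccttgtCTCTCTTTgtctcgggcct
Rpl31, variable within the mesenchyme, plus strand at chr1:39367825-39367854: tcgccacaCCTCTTCCTCCTCgcctccccg
Rpl22, plus strand at chr4:152325697-152325726: tcccgacagccgaCTTCgccctgggaaaag
Rpl22l1, its paralog, plus strand at chr3:28805500-28805529: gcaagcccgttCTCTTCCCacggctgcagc
Rps27, minus strand at chr3:90213631-90213660: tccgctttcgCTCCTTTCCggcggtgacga
Rps27l, its paralog, plus strand at chr9:66946054-66946083: cccgcctccaCTCCTCTCCactcctccccg
Rpl36a, plus strand at chrX:134585673-134585702: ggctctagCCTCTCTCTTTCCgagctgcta
Rpl36al, its paralog, minus strand at chr12:69184019-69184048: ctctgttcgtCCCTTTCCTgttcggcgcgt
Rpl39, minus strand at chrX:37085173-37085202: gttcttccggtcccggCCTTTCTCTTCTCC
Rpl39l, its paralog, plus strand at chr16:10170192-10170221: acacccactgCCTCTCCCTagctcccaggc
Many marked runs do not lie at the annotated start. With 1 as the annotated first base and minus for bases before it, those of Rpl41, Rps24, Rpl39, Rpl36al and Rpl36a begin at 41, 40, 37, 30 and 28. Those of Rpl39l, Rps27l and Rpl31 begin at −26, −22 and −18. Nearer the start are those of Rps9, Rps27 and Rpl22l1, at −5, −2 and 4. The runs of Rpl41, Rps24 and Rpl39 reach the end of the table's window and may be longer than shown. Rplp0 and Rpl22 held no run of 8 in their windows; their longest had 5 and 4 bases. A match describes these letters only, and no match says nothing about the mRNA's true first base.

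The 4775 cells held 36897645 UMIs, of which 26.3% came from the members. Of these cells, 122 likely doublets and 118 barcodes rich in haemoglobin transcripts were set aside, and the other 4535 fell into 26 clusters. The members were left out of the clustering, so that they did not define the groups. Clusters are called here by a leading gene. By their markers, 769 cells were epithelial, 1398 immune and 2197 mesenchymal. Col1a1, a collagen of mesenchyme, had 47.8 UMIs per 1000000 UMIs (CPM) in epithelial, 103 CPM in immune and 8821 CPM in mesenchymal cells. The keratin gene Krt14 had 824, 13.1 and 3.56 CPM in the same 3 classes, and the leukocyte gene Ptprc 0.789, 322 and 0.779 CPM. The label of dental mesenchyme thus holds for a part of the cells. Median depth was 9304 UMIs per epithelial, 2863 per immune and 7009 per mesenchymal cell. The mitochondrial share was 5.59% in epithelial, 9.10% in immune and 6.79% in mesenchymal cells.

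The share of transcripts spent on ribosomal proteins differed between the classes. It was 22.0% (21.99 to 22.04) in epithelial, 18.6% (18.61 to 18.67) in immune and 32.3% (32.23 to 32.27) in mesenchymal cells. The small classes of endothelial cells (74 cells) and erythroid cells (97 cells) had 22.7% and 11.3%. A share depends on what else a cell makes: 3 genes above 1% of the UMIs took 19.8% of the epithelial total, while 2 such genes took 2.91% of the mesenchymal total. With such genes left out of the totals, epithelial cells had 27.5%, immune cells 22.0% and mesenchymal cells 33.2%. With each cell thinned to 2000 UMIs, the shares were 23.2%, 18.5% and 32.8%, over 711, 948 and 2033 cells. The order of the 3 classes was the same on each of these scales.

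Clusters within a class differed more than the classes did. Among epithelial clusters the Ambn cluster, ameloblast-like cells that express the enamel matrix gene Ambn, had the lowest share, 12.4% (12.34 to 12.40) over 289 cells. The Grp cluster, like the dividing progenitors of the dental epithelium, had 32.2%, and the Tgfb3 and Enpp2 clusters had 26.2% and 27.1%. Without the dominant genes the Ambn cluster was again the lowest of these 4, at 21.5%, and the other epithelial clusters had 28.4% to 33.1%. Neutrophil-like cells had the lowest shares of all: 3.44% in the Retnlg cluster (132 cells) and 7.85% in the Camp cluster (56 cells), whose genes Camp, Ltf and Ngp belong to granules made in immature neutrophils. Dominant genes took 40.5% of the Retnlg and 48.8% of the Camp total. Without them these clusters were again the lowest, at 5.79% and 15.3%. Over all UMIs macrophage-like clusters had 15.3% to 23.9%, B-cell-like clusters 26.1% and 27.1%, and the Trbc2 cluster of T-cell-like cells 29.2%. These are shares of summed UMIs, in which deep cells weigh more. The median cell had 4.25% in Camp, 19.4% in the macrophage-like Ace cluster and 23.9% in the B-cell-like Vpreb3 cluster. In Camp and Ace the summed share lay above the upper quartile of the cells, 6.21% and 23.4%.

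Among mesenchymal clusters the share ran from 17.9% in the Dspp cluster (22 odontoblast-like cells with Dspp, the gene of the main non-collagenous dentin protein) to 40.3% in the Tac1 cluster (188 cells). The second odontoblast-like cluster, Dmp1, had 27.9% and the follicle-like Igf1 cluster 27.1%. The Nusap1 cluster, led by genes of cell division such as Ube2c, Birc5 and Mki67, had 31.7%, close to the mesenchymal total. The remaining clusters, Lgals3, Slc20a2, Fmod and the apical-mesenchyme-like Lypd1, had 33.5% to 36.9%. Median depth tracked the share weakly: over the 26 clusters, which share 1 library, r between share and median UMI count was 0.146. Within clusters, the share was higher in the deepest of 3 equal sets of cells in 15 of 26, but the direction differed by class. Every immune cluster except Cox6a2 and Retnlg was higher in its deepest than in its shallowest set. Ms4a1 had 29.3% against 22.4%, and Camp 10.6% against 4.43%. All epithelial clusters were lower in the deepest set, with 25.3% against 29.9% in Tgfb3, and mesenchymal clusters went both ways. Beyond the thinning above, the part of depth in the low immune share was not tested. The share was lower in the set with most mitochondrial UMIs in 19 of 26 clusters, and the part of cell quality in the result was not tested.

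**Figure D1:**
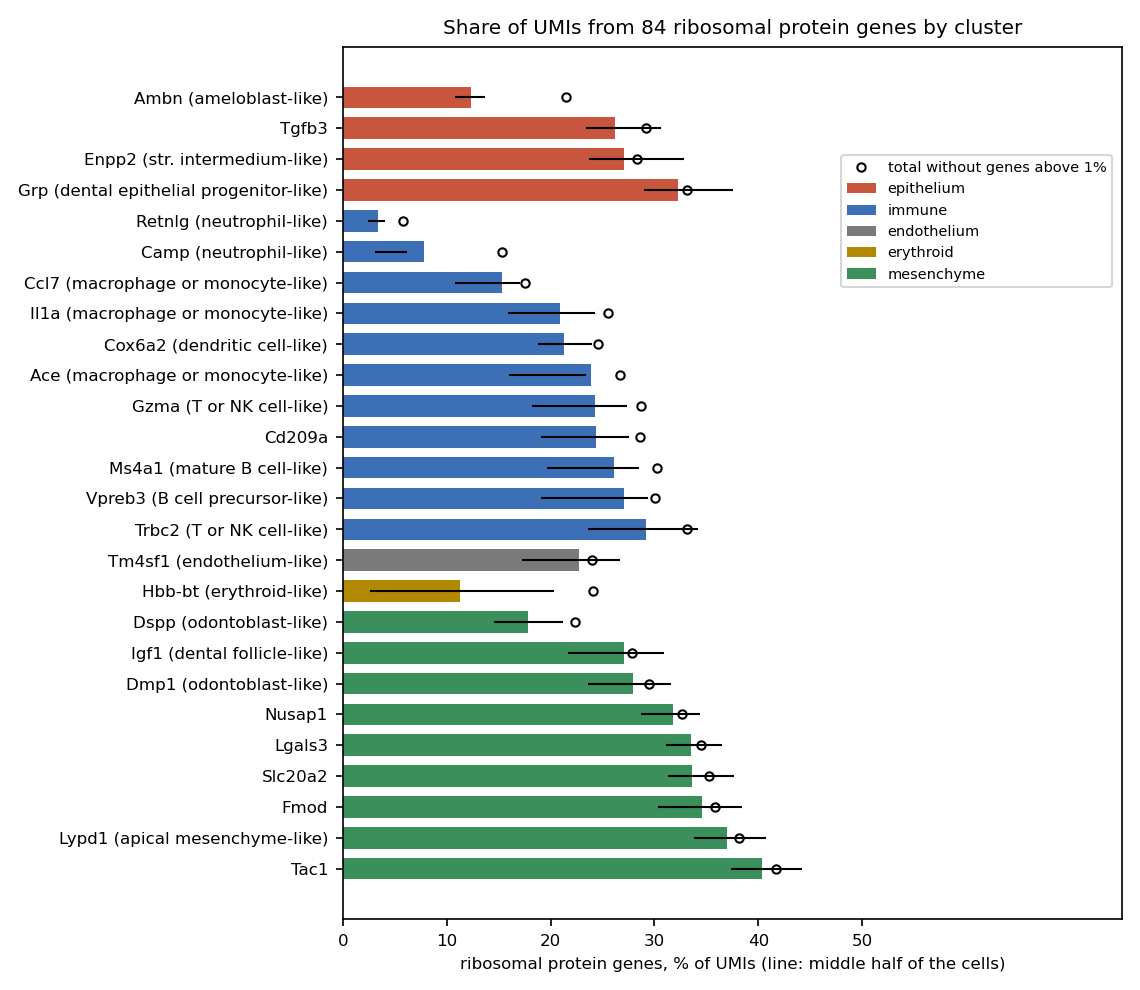
Share of UMIs from the 84 ribosomal protein genes (bars, % of all UMIs) in 26 clusters, with the range between the quartiles of single cells (line) and the share after genes above 1% of the UMIs left the total (open circles). The Ambn cluster (12.4%) and the neutrophil-like Retnlg cluster (3.44%) stand below the rest of their classes, and Tac1 is highest (40.3%).

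The members themselves were expressed at very unequal levels. Counts come from 3′ ends, with 1 tag per captured molecule, so levels are given in CPM without division by length. Rpl41, which encodes the shortest ribosomal protein, led with 12066 CPM over the 4775 cells, 4.58% of the members' sum. It was followed by Rplp0, the base of the ribosomal stalk, with 8328 CPM, and by Rps24 with 7631, Rps20 with 7479 and Rpsa, the laminin-receptor-related small-subunit protein, with 6839 CPM. Rpl39 (6695 CPM), Rpl13 (6544), Rpl37a (6395), Rps19 (6363) and Rps27a (6014), which is made as a fusion with ubiquitin, completed the top 10. Together these 10 gave 28.2% of the members' UMIs. The median member had 2826 CPM, 68 members exceeded 1000 CPM, and 80 were detected in at least 50% of the cells.

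Below 5% of the median lay 5 members. Rpl13a had 138 CPM (5098 UMIs), Rpl7l1 61.8 CPM (2279 UMIs), Rpl39l 32.3 CPM (1193 UMIs), Rpl3l 1.17 CPM (43 UMIs) and Rpl10l 1 UMI in all. Rpl7l1, Rpl39l, Rpl3l and Rpl10l are paralogs, while Rpl13a is a single core subunit gene whose locus overlaps the protein-coding Gm45713 on the same strand. Mapping limits these levels, since ribosomal protein genes have many processed copies. In GENCODE M21, 46 of the 84 members had fewer than 50% of the 50-base words in the last 300 bases of their transcript to themselves, and 22 shared none. Rplp0, Rps20 and Rpsa are among the 22, while 37.1% of the words of Rpl41 and none of those of Rps27 and Rpl36a were unique. Among members that vary below, 36.7% of the words of Rpl22l1, 29.9% of those of Rpl36al and 5.58% of those of Rps12 were unique. The locus of Rpl36al also overlaps a protein-coding gene on its strand (Gm49383), as do those of Rpl13 and Rps10. How reads from copies were assigned is not given in the sources used here, so levels of members with few unique words are uncertain.

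**Figure D2:**
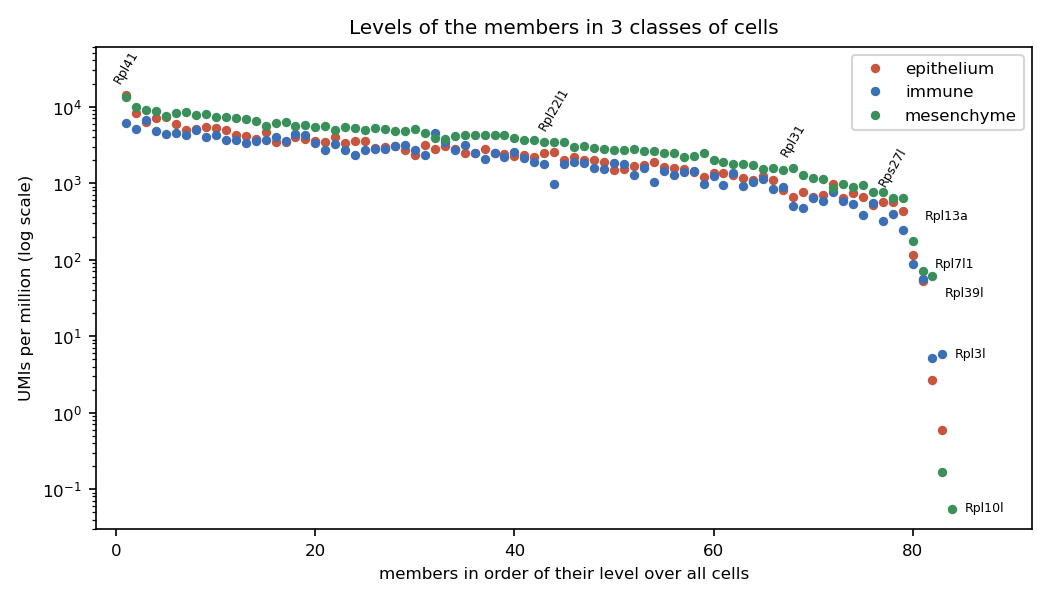
Level of each member (CPM, log scale) in epithelial, immune and mesenchymal cells, ordered by its level over all cells. Most members have their highest point in mesenchymal cells, and the 5 rarest, from Rpl13a (138 CPM over all cells) to Rpl10l, drop away from the rest.

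Across the 26 clusters the members moved together. The log2 level of 70 of the 84 members correlated above 0.9 with that of the other members' sum, with a median r of 0.969, over clusters that share 1 library and its depth. The neutrophil-like Retnlg and Camp clusters, far below the rest in members' share, are among the 26, and no r without them is given. For the 2341 other genes of at least 50 CPM, the median r with the members' sum was 0.367. Among the closest were Naca (r 0.967), which guards nascent peptides at the ribosome, the elongation factor Eef1a1 (0.965) and Rack1 (0.963), itself a protein of the small subunit. Nsa2 (0.947), Eif3e (0.937), Snrpf (0.934), Eef1b2 (0.933), Esf1 (0.932) and Gm11808 (0.931) followed. Nsa2 and Esf1 act in ribosome assembly, and Eif3e and Eef1b2 in initiation and elongation.

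Within this common movement, the makeup of the set varied between cell types. Each member's share of the members' own UMIs does not depend on the total of a cluster. Among the 81 members with at least 3 UMIs in every cluster, the highest cluster share was a median of 2.09 times the lowest, and 36 members stayed within 2-fold. Without the neutrophil-like clusters, 53 stayed within 2-fold over 24 clusters, and over the 9 mesenchymal clusters 78 of 82 did. Rps9, a small-subunit protein, varied most, from 0.892% of the members' UMIs in the Ambn cluster to 6.68% in the Retnlg cluster. In that neutrophil-like cluster Rps9 had 2300 CPM and Rpl3, a core large-subunit protein, 151 CPM. The same cluster also held high shares of Rps27a (5.51%), Rps27 (3.88%) and Rpl37 (3.66%), against 2.28%, 1.31% and 1.91% over the 4775 cells. Rpl36al, Rpl7l1, Rpl22l1, Rpl31 and Rps27l followed, with ranges of 6.88-fold, 6.14-fold, 5.10-fold, 4.30-fold and 4.24-fold. The range of Rpl7l1 rests on 9 UMIs in its highest cluster, Cox6a2, and 5 in its lowest, Vpreb3, and the low end of Rpl36al on 13 UMIs in Retnlg.

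**Figure D3:**
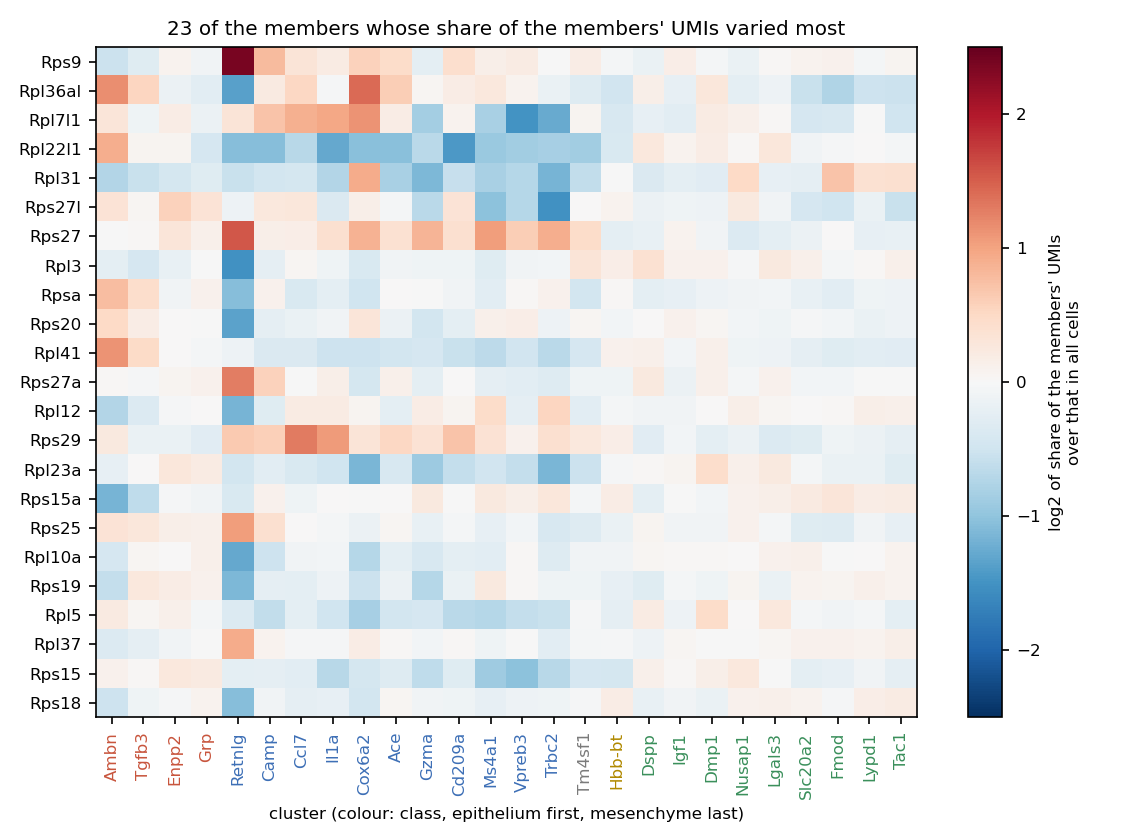
Share of the members' UMIs taken by each of 23 of the most variable members in 26 clusters, as log2 of its value over that in all cells (red, above; blue, below). The neutrophil-like Retnlg column differs most, and Rpl41, Rpl22l1 and Rpl36al stand above their overall share in the Ambn column.

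Ribosomal protein mRNA made up a smaller share of the UMIs in epithelial than in mesenchymal cells, and the shift ran through nearly all members. The members' sum had a log2 ratio of −0.55 (−0.553 to −0.548) over all UMIs and −0.26 without dominant genes. Of 82 members with at least 30 UMIs, 80 were lower in epithelial cells. None was at least 2-fold higher and 4 were at least 2-fold lower, against 10.5% higher and 20% lower among all 12920 measured genes. The median member had a log2 ratio of −0.60, against −0.29 for all genes. Without the dominant genes these medians were −0.31 and 0.01, and 1 member stayed 2-fold lower, against 15% of all genes. On that scale 75 of the 82 were lower, and 5 turned to higher: Rpsa (0.25), Rps27l (0.14), Rps25 (0.05), Rps12 (0.03) and Rplp0 (0.02).

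The 4 members past 2-fold were Rpl39l, Rpl31, Rps15a and Rpl36a. Rpl39l, the Rpl39 paralog, had 2.66 CPM (27 UMIs) in epithelial and 60.2 CPM (1082 UMIs) in mesenchymal cells. Rpl31 had 649 CPM against 1562 CPM in mesenchymal cells, Rps15a 2337 and 5056 CPM, and Rpl36a 1215 and 2433 CPM. Relative to the members' own sum, their log2 ratios were −3.95 (−4.56 to −3.40), −0.72, −0.56 and −0.45, and Rpl21 came next with −0.34. At the other end Rpl36al had 963 CPM against 861 CPM in mesenchymal cells, 0.71 on the log2 scale relative to the members' sum. Rpl41 (0.61), Rpsa (0.51), Rps27l (0.40) and Rps25 (0.30) were the other members most raised in relative terms. Of ribosomal proteins with other symbols, Fau had 4504 and 5208 CPM and Rack1 849 and 1355 CPM in epithelial and mesenchymal cells. Without the dominant genes in the totals, the log2 ratio of Fau was 0.08.

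The Ambn cluster weighs on the epithelial values. Without it the epithelial share was 28.9%, and 1 member remained at least 2-fold lower than in mesenchymal cells. Compared with the other 480 epithelial cells, ameloblast-like cells had a members' sum of 12.4% against 28.9% of UMIs, a log2 ratio of −1.22 (−1.228 to −1.219). The 480 cells are the progenitor-like Grp cluster (208 cells), Enpp2 (92 cells) and the unnamed Tgfb3 cluster (180 cells). Tgfb3 had 1 of 9 ameloblast markers raised, its leading gene Dspp, so the reference is not free of ameloblast markers. All 81 measured members were lower, 68 of them at least 2-fold and none 2-fold higher, against 40.5% lower and 3.54% higher among 10565 genes. With finer clusters (resolution 2.0) the ameloblast-like name fell on 63 cells in place of 289, and 22 members were at least 2-fold lower. No share of all genes is given for this count or for the count without the Ambn cluster. The 5 genes above 1% of the UMIs in these cells took 42.5% of their total. With dominant genes left out of both totals, the members' log2 ratio was −0.51 and 16 members remained at least 2-fold lower, against 19.4% of all genes. The median member then had −0.64 and the median gene −0.08, and 5 of the 81 members were higher in ameloblast-like cells.

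Some members were nearly as abundant in ameloblast-like as in other epithelial cells. Rpl22l1 had 2341 CPM in ameloblast-like and 2630 CPM in other epithelial cells, while its parent Rpl22 had 475 and 2044 CPM. Rpl36al had 892 and 1013 CPM, while its parent Rpl36a had 517 and 1711 CPM. Rpl41 had 12391 and 15080 CPM, and thus made up 10.0% of the members' UMIs in the Ambn cluster, the highest share any member reached in any cluster. Relative to the members' sum, the log2 ratios were 1.06 for Rpl22l1, 1.04 for Rpl36al, 0.94 for Rpl41, 0.77 for Rps12 and 0.55 for Rpsa. Over all UMIs these 5 were lower in ameloblast-like cells, with log2 ratios of −0.17, −0.18, −0.28, −0.45 and −0.67 in the same order. With dominant genes left out of the totals they were higher, with 0.54, 0.53, 0.43, 0.26 and 0.04. The lowest were Rps15a with 794 and 3433 CPM (−0.89), Rpl22 (−0.88), Rps19 with 1985 and 7913 CPM (−0.77), Rpl32 (−0.69) and Rps13 (−0.68). Rps19, the gene most often mutated in human Diamond-Blackfan anaemia, was among these lowest, and Rps12 had 1030 and 1412 CPM.

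**Figure D4:**
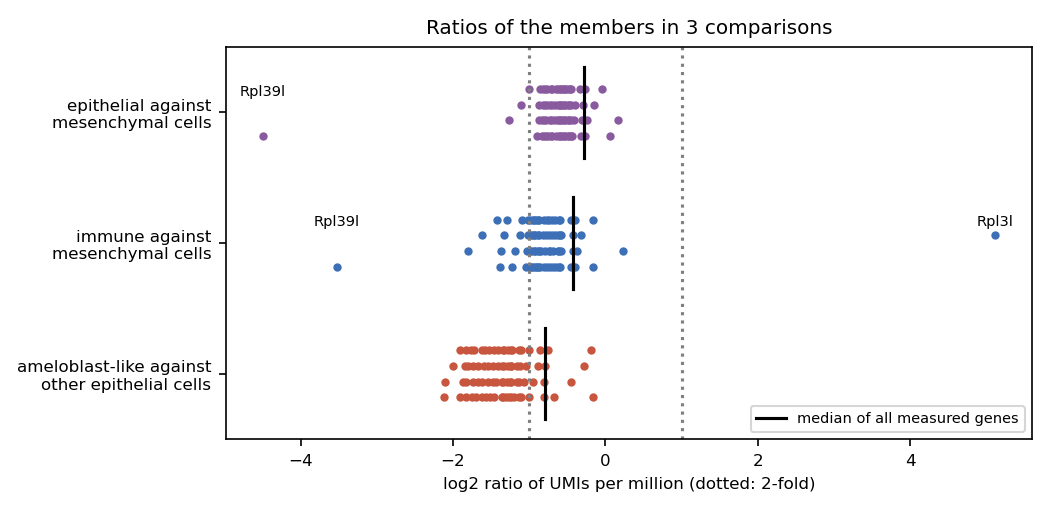
Log2 ratio of CPM for each measured member in 3 comparisons (points), with the median of all measured genes (black line) and 2-fold (dotted). Members lie mostly left of the line in each, with a median of −1.35 in ameloblast-like cells, and Rpl39l and Rpl3l lie far from the rest.

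Immune cells had the lowest members' share of the 3 large classes. Over all UMIs its log2 ratio to mesenchymal cells was −0.79, and −0.63 without dominant genes. Of 83 measured members, 1 passed 2-fold upward and 16 downward, against 18.8% and 32.6% of 13158 genes. The median member had −0.85 and the median gene −0.42. Without dominant genes 10 members were 2-fold lower, against 28.9% of all genes. The neutrophil-like clusters weigh on this: without them the immune share was 20.5%, 10 members were 2-fold lower and none with at least 30 UMIs was 2-fold higher. No share of all genes is given for the calls without these clusters. All 14 genes of a list of dissociation-response genes (immediate early genes such as Atf3, Zfp36 and Btg2) were at least 2-fold higher in immune cells, with a sum of 11153 CPM against 1601 CPM in mesenchymal cells; their part in the result was not tested.

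The relative makeup of the set in immune cells differed at both ends. Rpl22l1 had 971 CPM in immune and 3391 CPM in mesenchymal cells, a log2 ratio of −1.01 relative to the members' sum. Rpl39l (5.23 and 60.2 CPM, −2.73), Rpl31 (507 and 1562 CPM, −0.83) and Rpl23a (242 and 630 CPM, −0.59) were also among the lowest. Rpl31 was not low in every immune cluster. Its highest share of the members' UMIs in any cluster, 0.791%, was in the dendritic-like Cox6a2 cluster (26 cells, 140 UMIs of Rpl31). Rps29, a small zinc-binding protein of the small subunit, had 4525 CPM in immune and 3852 CPM in mesenchymal cells, 1.02 relative to the sum. Rps27 (3425 and 3818 CPM) had 0.63, Rpl36al also 0.63, and Rpl35a 0.47. Rpl3l was the 1 member at least 2-fold higher, on 31 UMIs in immune and 3 in mesenchymal cells (log2 ratio 5.12, 3.44 to 7.47). Of these 31 UMIs, 15 fell in the Ace cluster of monocyte-like cells, 8 in the Retnlg and 4 in the Camp cluster. Without the neutrophil-like clusters it had 19 UMIs in immune and 3 in mesenchymal cells, fewer than the 30 a call needs, and a log2 ratio of 4.61 (2.85 to 7.01). With only 3 mesenchymal UMIs the size of this ratio is poorly set. Rack1 was also lower, at 662 CPM in immune and 1355 CPM in mesenchymal cells, whereas Fau had 6452 and 5208 CPM.

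Counted over all members, the balance of the subunits shifted little between the classes. The ratio of large-subunit to small-subunit UMIs was 1.30 (1.297 to 1.304) in epithelial, 1.2 (1.195 to 1.205) in immune and 1.308 (1.306 to 1.310) in mesenchymal cells. It was highest in the secretory Ambn (1.396) and Dspp (1.375) clusters and lowest in the Retnlg (1.119) and Ms4a1 (1.138) clusters. Among the 22 members with unique 3′ ends alone, the ratios were 1.558, 1.844 and 1.922 in epithelial, immune and mesenchymal cells. Both the size of the shift and the order of epithelial and immune cells thus depend on which members are counted.

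Within the mesenchyme, calls at 2-fold were limited to 1 of the 9 clusters. Against the other mesenchymal cells, the Dspp cluster had 26 of 82 measured members at least 2-fold lower and none higher, against 18.5% lower and 9.97% higher among 12058 genes. Its members' sum had a log2 ratio of −0.86, and −0.59 without dominant genes, when 3 members stayed 2-fold lower against 13.2% of all genes. It rests on 22 cells, in which 12 of the 14 dissociation-response genes were also 2-fold higher; their part was not tested. No member reached 2-fold in any of the 8 other clusters. Among all genes, the shares past 2-fold upward and downward there were 7.44% and 21.9% in Dmp1, 4.37% and 10.6% in Fmod, and 15.2% and 10.1% in Igf1. They were 1.9% and 15.1% in Lgals3, 1.97% and 11.5% in Lypd1, and 5.94% and 12% in Nusap1. In Slc20a2 they were 4.57% and 12.7%, and in Tac1 2.07% and 14.6%. The members' sums had log2 ratios of 0.35 in Tac1, 0.22 in Lypd1, 0.12 in Fmod, 0.07 in Lgals3 and in Slc20a2, −0.03 in Nusap1, −0.24 in Dmp1 and −0.29 in Igf1. In Tac1 the median of all genes was −0.29 while the median member had 0.35.

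Rpl31, a large-subunit protein near the exit tunnel, was the member that most often stood out within the mesenchyme. It had 2343 CPM in Fmod, 2206 in Tac1, 1995 in Lypd1 and 1840 in Nusap1 cells. In Lgals3 and Slc20a2 cells it had 1198 and 1192 CPM, and in Dmp1, Igf1 and Dspp cells 947, 942 and 575 CPM. Its share of the members' UMIs was thus 0.677% in Fmod and 0.322% in Dspp, and 0.249% in the epithelial Ambn cluster. Its 3′ end shares no 50-base word with another gene. Rpl36al ran the other way, with a log2 ratio relative to the members' sum of 0.66 in Dmp1 and −0.53 in Fmod cells. In the dividing Nusap1 cells Rps27l (0.49) and Rpl39l (0.47) were the most raised and Rpl10 (−0.41) the most lowered. In Dspp cells Rpl39l (0.89, 0.11 to 1.58), Rpl10 (0.70) and Rpl38 (0.56) were the most raised.

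The ratio of a paralog to its parent gene differed between cell types. UMIs of Rpl22l1 per UMI of Rpl22 numbered 4.92 (4.69 to 5.17) in the Ambn cluster, 1.85 in Tgfb3 and 0.950 in Grp. The ratio was 1.80 over all epithelial, 0.674 over immune and 1.52 over mesenchymal cells, with 2.04 in Dspp and the lowest value, 0.465, in the Cd209a cluster. Rpl36al per Rpl36a gave 1.73 (1.64 to 1.82) in Ambn, 1.01 in Tgfb3 and 0.382 in Grp, and 0.792 in epithelial, 0.796 in immune and 0.354 in mesenchymal cells. The highest ratio, 1.75, was in the dendritic-like Cox6a2 cluster of 26 cells, and the lowest, 0.251, in Fmod. Rps27l, which is also a target of p53, had 0.245 UMIs per Rps27 UMI in Nusap1 cells and 0.206 in Ambn cells. The Trbc2 cluster had 0.0302, and epithelial, immune and mesenchymal cells as classes 0.186, 0.114 and 0.166. For Rpl36a and Rps27 no word of the 3′ end was unique, and for Rpl22l1 and Rpl36al 36.7% and 29.9% were. All 3 ratios could therefore include reads of copies.

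Rpl39l was expressed chiefly in the mesenchyme, where its ratio to Rpl39 was 0.00737. In epithelial and immune cells the ratio was 0.000454 and 0.00115. All 9 mesenchymal clusters had between 36.4 CPM (Dmp1) and 75.9 CPM (Nusap1), and no other cluster exceeded 15.3 CPM. With cells thinned to 2000 UMIs, a UMI of Rpl39l was seen in 0.703% of 711 epithelial cells, 0.844% of 948 immune cells and 9.99% (8.72 to 11.4) of 2033 mesenchymal cells. Without thinning the shares were 2.34%, 1.65% and 24.6%. The source of the UMIs in epithelial and immune cells was not tested, and barcodes of 1 to 20 UMIs held Rpl39l at 170 CPM. The 3′ end of the Rpl39l transcript is unique. How many of all genes separate the mesenchymal clusters from all others by level was not counted. Rpl7l1 differed less between the classes: 0.0277, 0.0359 and 0.0254 per UMI of Rpl7 in epithelial, immune and mesenchymal cells.

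Other genes of the translation machinery went partly with the members. Calls below are read against the shares of all genes given above for each comparison. In epithelial against mesenchymal cells, 0 of 77 measured mitochondrial ribosomal protein genes were 2-fold higher and 1 lower, with a median log2 ratio of −0.45. Of 18 elongation factors and other known tract-bearing mRNAs, 4 were 2-fold lower (median −0.74), led by Vim with 47.8 and 940 CPM, a mesenchymal filament gene. Npm1, the nucleolar chaperone, had 732 and 1716 CPM. Of 32 initiation factors 1 was lower (median −0.47), Eif3e with 151 and 395 CPM, and Eif1 had 1906 and 1310 CPM. Of 68 ribosome biogenesis genes 7 were lower (median −0.58), with Npm3 at 38.6 and 112 CPM. Among 25 regulators of Myc and mTOR, Mycn had 13.8 and 70.2 CPM and Myc 22.0 and 9.18 CPM in epithelial and mesenchymal cells.

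In ameloblast-like against other epithelial cells, 52 of 67 biogenesis genes were at least 2-fold lower and none higher (median −1.39). Of 18 elongation and other tract-bearing genes 13 were lower (median −1.34). Of 32 initiation factors 12 were lower (median −0.86), and of 77 mitochondrial ribosomal protein genes 27 (median −0.85). Without dominant genes 20 biogenesis, 7 elongation or other tract-bearing, 2 initiation and 3 mitochondrial ribosomal protein genes remained 2-fold lower. Nap1l1 had 43.7 and 275 CPM, Eif3e 59.6 and 217 CPM, Myc 5.69 and 33.6 CPM and Mycn 1.42 and 22.6 CPM. Of 31 genes of the S and G2/M phases 30 were lower, with Mki67 on 3 UMIs in ameloblast-like and 467 in other epithelial cells; how far cell division goes with the members' share was not tested. In the dividing Nusap1 cells, 31 of 32 such genes were 2-fold higher than in the other mesenchymal cells, 5 of 68 biogenesis genes were higher (median 0.49), and the members' sum had a log2 ratio of −0.03. In the Dspp cluster 24 of 68 biogenesis genes were lower (median −0.98).

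In immune against mesenchymal cells, 15 of 77 mitochondrial ribosomal protein genes were lower and 1 higher (median −0.69). Of 18 elongation and other tract-bearing genes 8 were lower (median −0.81). Eef1g had 254 and 757 CPM and Eef1b2 934 and 2255 CPM. Of 68 biogenesis genes 14 were lower and 1 higher (median −0.47), and Wdr12 had 14.9 and 59.9 CPM. Of 32 initiation factors 5 were lower (median −0.54), while Eif1 had 2207 and 1310 CPM. Mxd1, an antagonist of Myc, had 180 CPM in immune and 13.5 CPM in mesenchymal cells, and Mycn 2.24 and 70.2 CPM. Over the 26 clusters, the median r with the members' sum was 0.870 for 14 elongation and other tract-bearing genes and 0.825 for 15 biogenesis genes. It was 0.762 for 31 initiation factors and 0.689 for 42 mitochondrial ribosomal protein genes. It was 0.122 for 6 S and G2/M genes and −0.02 for 14 dissociation-response genes. These correlations are over clusters of 1 library and only over genes of at least 50 CPM.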

How the data were processed

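Droplet 3′ single-cell libraries of mouse lower incisor were measured in 2 samples that are lanes of 1 library. The deposited matrix holds raw UMI counts (whole numbers) for 31053 genes and 6794880 barcodes, written by software version 3.0.2, per the file headers. The submitters' processing notes name mm10, Seurat and R 3.4.1, with no role given. Both lanes are summed in the matrix, so nothing was averaged and no test between groups was possible; p-values are not given. Of the barcodes, 1546436 held a UMI, with 68931830 UMIs in all.

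The members and gene lists were chosen with earlier results of these data known. Cells had at least 500 genes and at most 20% mitochondrial UMIs (5336 and 4775 barcodes). Doublets were scored with Scrublet in scanpy 1.11.5; its own threshold called 1, so a score above 0.15 was used, and barcodes above 5% haemoglobin UMIs were removed. Counts per 10000 on a log scale, 2000 variable genes without members and lists, 30 components, 15 neighbours and Leiden (resolution 1, then 0.5 within mesenchyme) gave the clusters. A cluster was named from at least 3 raised markers of a fixed list; the class step and the gate on leading genes were set after seeing the data, as were the promoter windows and 3 of the alternatives. UMIs were summed per group. Shares have Clopper-Pearson and ratios exact conditional binomial intervals. Called means 2-fold with at least 30 UMIs over both sides. Dominant genes are non-members above 1% of either side's UMIs. The counting code was tested on simulated data. Named members are the 10 most abundant, those under 5% of the median, paralogs with their parents, and the 5 highest and 5 lowest ratios relative to the members' sum in each comparison. From each list the genes with the highest and lowest ratios were eligible, and outside it the 10 genes most correlated with the members' sum. Rps9, Rpl37, Npm1, Nap1l1, Eef1b2, Myc in ameloblast-like cells and the members singled out in neutrophil-like cells were named after their values were seen. Uniqueness of 3′ ends used GENCODE M21, and sequences are from RefSeq, GRCm38.p6. Alternatives changed the filters, clustering, totals, weighting, depth, thresholds and members. A few items that meet these rules are not reported here.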

Additional observations from a re-analysis of the deposited data

Results flagged for a closer look

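Some signal appeared in data that the comparisons above do not use. The 10 pseudogene and retrogene rows that the member rule leaves out held 14431 UMIs in the 4775 cells, 0.148% of the members' sum, and 8 of the 10 were above 3 UMIs. Rps27rt, a retrogene of Rps27, had 7598 of them. Barcodes of 1 to 20 UMIs, far below the filters for cells, had 173 UMIs of Rpl10l and 490 UMIs of Rpl39l, both above the 3 UMIs that a count of 0 allows. Rpl10l had 60.04 CPM in these barcodes and 0.0271 CPM in cells, and Rpl39l 170 and 32.3 CPM. The same barcodes also held transcripts nearly absent from the cells: Myl7 had 768 CPM against 2.06 CPM in cells, and Actc1 527 against 0.0542 CPM. Myl7 and Actc1 are genes of heart muscle, and these genes were chosen after their values were seen. The members' share was 17.7% in barcodes of 1 to 20 UMIs and 16.6% in the 561 barcodes above 20% mitochondrial UMIs, against 26.3% in the cells. The source of these transcripts was not tested.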

How the results depend on the processing

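No paired analysis was possible because both samples are lanes summed in 1 matrix. Under all alternatives run, 38 of 38 log2 sums and 358 of 358 values of single members relative to the members' sum kept their sign. Members named for such ratios were picked as the highest and lowest in these same cells, so a kept sign was likely in advance. Leaving non-members out of the totals cannot change a ratio relative to the members' sum. The 358 values are thus no independent support. In totals without dominant genes, 5, 2 and 5 members that were lower over all UMIs in the epithelial, immune and ameloblast-like comparisons were higher. Without dominant genes, counts of members 2-fold lower were 1 of the epithelial comparison, 10 of the immune and 16 of the ameloblast-like one; with unique members only (22), 2, 5 and 17; at 1.5-fold, 43 and 70 in the first 2 comparisons, and in mesenchymal clusters 75 lower and 1 higher. The epithelial count was 2 with cells weighted equally or thinned, and 1 without the ameloblast-like cluster. The immune count was 10 without neutrophil-like clusters. At resolution 2.0 the ameloblast-like name fell on 63 cells in place of 289, with 22 members lower. Shares of all genes are given above only at 2-fold for the reported groups and for totals without dominant genes. The other counts here have no share of all genes to be read against. Rpl3l was no longer called higher (0) at 100 UMIs, 1000 genes, 10% mitochondrial UMIs, thinned, or without neutrophil-like clusters, each time on the UMI minimum: it had 11 to 22 UMIs over both classes in the last 4, all 11 of them immune when thinned and log2 ratios of 4.48, 4.66 and 4.61 in the others. Shares in epithelial, immune and mesenchymal cells were 22.0%, 19.2% and 32.2% at 1000 genes, 21.9%, 19.2% and 32.4% at 10% mitochondrial UMIs, 22.0%, 18.6% and 32.0% with no removal, 23.5%, 18.6% and 32.6% with equal weights, 23.2%, 18.5% and 32.8% thinned, 27.5%, 22.0% and 33.2% without dominant genes, 23.3%, 20.5% and 34.6% without mitochondrial genes, and 5.37%, 4.32% and 7.75% with unique members. They were 28.9% in epithelial cells without the ameloblast-like cluster, and in immune cells 18.5% at resolution 2.0 and 20.5% without neutrophil-like clusters. Ratios of large to small subunits were 1.289, 1.185 and 1.312 with equal weights, 1.558, 1.844 and 1.922 with unique members, 1.304 and 1.209 (epithelial and immune) at 10% mitochondrial UMIs, 1.289 (epithelial) thinned, 1.272 (epithelial) without the ameloblast-like cluster, and 1.210 at 1000 genes and 1.206 with no removal (immune). The cause of these moves was not tested beyond the construction of each alternative. Depth limits the rare members: Rpl3l rests on 43 UMIs and Rpl10l on 1.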
